A study of Mus musculus with 2 samples.

Results

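The cells described here are brain mural cells, the pericytes and smooth muscle cells that wrap small blood vessels, in the cortex of mice at postnatal day 5. They were chosen by their own counts. A barcode had to reach 1000 UMIs (unique molecular identifiers, each counting 1 captured RNA molecule) and 500 genes, with no more than 20% of its UMIs mitochondrial. It also needed at least 4 of the 9 genes Rgs5, Kcnj8, Pdgfrb, Abcc9, Vtn, Ndufa4l2, Notch3, Acta2 and Myh11, at most 2 UMIs of the endothelial genes Cldn5 and Flt1 together, and at most 2 UMIs of the fibroblast genes Dcn, Lum and Col3a1 together. This gave 472 cells of the 21126 barcodes that passed the quality limits, 237 of 11024 in the wild-type (WT) library and 235 of 10102 in the Katnal2 mutant (Mut) library. Because counts of these genes chose the cells, their levels below are a description.

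Each genotype was 1 droplet library (10x Genomics) of cortex dissociated with trypsin and collagenase and sorted by flow cytometry. Katnal2 encodes a katanin-like subunit of a microtubule-severing family. The labels give the genotypes as WT and Mut with no strain, and the sources used here do not give the mutated part of the gene, the sort gate or the kit version. The design text mentions 3 replicates per sample, but no label or barcode ties a cell to an animal, so each genotype counts as 1 sample, and genotype, library and animals cannot be told apart. Differences between the genotypes therefore have no replicate check and no test. The 95% intervals given are exact and cover counting error only.

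Pericytes sit in the basement membrane of capillaries, where endothelial PDGF-B acting on the receptor Pdgfrb recruits and keeps them, and they help to form the blood-brain barrier. Smooth muscle cells surround arterioles and arteries and contract through smooth muscle actin (Acta2), smooth muscle myosin heavy chain (Myh11) and their partners. In the brain both express Notch3 and the receptor Pdgfrb, and pericytes are marked by the potassium channel subunits Kcnj8 and Abcc9.

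The median cell held 4370 UMIs and 1899 genes in WT and 4198 UMIs and 1952 genes in Mut, against a median of 6446 and 7626 UMIs over all filtered barcodes. The summed mural UMIs were 1178981 in WT and 1213426 in Mut. No barcode name was shared between the mural cells of the libraries, although 39 names were shared among all filtered barcodes. Katnal2 itself gave 2 UMIs in WT mural cells and 1 in Mut, too few to check the labels, which do not say whether the mutation lowers the transcript.

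Pericyte genes of the rule were seen in most of the cells, and its smooth muscle genes in few. Rgs5, a regulator of G-protein signalling and the leading pericyte marker, was detected in 100% of WT and 99.1% of Mut mural cells. It was detected in 2.08% and 3.83% of microglia and macrophages, cells that should lack it, which had deeper medians of 6204 and 7428 UMIs. The 2 smooth muscle markers of the rule were rare, with Acta2 in 10.1% and 5.96% of mural cells and Myh11 in 3.38% and 2.55%. Of the 9 genes, 178 WT and 182 Mut cells held 6 or 7. These genes chose the cells, so their detection does not check the label. Pericyte genes that the rule did not use are described below.

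Some cells also carried markers of another class. In 29 WT (12.2%) and 28 Mut (11.9%) cells, markers of astroglia, neurons, the oligodendrocyte lineage and microglia gave more UMIs than the 9 genes and 25 other pericyte genes together. Astroglia markers led in 25 of these cells in each library. Their astroglia sum had a median of 312 UMIs per 10000 in WT and 373 in Mut, against 24.3 and 30.4 in the other mural cells, while their sum of the 9 genes was 32.5 and 25.4 against 165 and 182. These mixed-marker cells were larger, with medians of 10130 and 11683 UMIs, and 16 and 15 of them were among the barcodes with the highest doublet scores. Summed levels and counts of genes that they moved are given with and without them.

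At the edge of the rule, the 25 WT and 29 Mut cells with exactly 4 genes had a median of 79.6 and 30.4 UMIs of the 9 genes per 10000, and of 29.3 and 47.8 for astroglia markers. The 50 and 99 barcodes just outside, with 3 genes and both other limits met, had 4.52 and 4.07 for the 9 genes and 437 and 468 for astroglia markers. The limits on endothelial and fibroblast genes removed 166 WT and 177 Mut barcodes with at least 4 genes. Of these, 87 and 85 exceeded the endothelial limit alone, 53 and 69 the fibroblast limit alone, and 26 and 23 both. The removed barcodes had medians of 16073 and 12757 UMIs. Exactly 2 fibroblast-gene UMIs were held by 32 WT and 28 Mut mural cells, and exactly 3 by 22 and 34 cells that met the other limits. For the endothelial genes the numbers were 15 and 12 at 2 UMIs and 3 and 5 at 3 UMIs.

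Mural cells were 2.15% of filtered barcodes in WT (95% Clopper-Pearson interval 1.89 to 2.44%) and 2.33% in Mut (2.04 to 2.64%). The ratio of Mut to WT was 1.08, and its interval of 0.900 to 1.30, which covers counting error within these 2 libraries, holds 1. Without the mixed-marker cells it was 1.09 (0.892 to 1.32). Among cells with Xist and no Y-linked UMI, taken as female, the shares were 2.43% and 1.92%, a ratio of 0.791 (0.591 to 1.06). Among cells with Y-linked UMIs and no Xist, taken as male, they were 1.22% and 1.38%, a ratio of 1.13 (0.723 to 1.75). Female cells made up 64.1% of the mural cells assigned a sex in WT and 72.7% in Mut, against 47.3% and 65.6% of all filtered barcodes. A sort preceded the libraries, and its part in these shares was not tested.

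The 7 pericyte genes of the rule had similar levels in the libraries, and each varied widely between cells. Capture differs between genes, so levels are compared within a gene. Rgs5 had a lowest, median and highest level of 0.767, 56.0 and 144 UMIs per 10000 UMIs of the cell in WT and 0, 66.0 and 239 in Mut. Vtn, which encodes the matrix protein vitronectin, had 0, 32.4 and 136 in WT and 0, 33.9 and 185 in Mut. Ndufa4l2, a mitochondrial protein induced by low oxygen, had 0, 18.6 and 56.8 in WT and 0, 17.9 and 92.8 in Mut. The medians were 8.24 and 8.79 for Kcnj8, 8.11 and 9.57 for Pdgfrb, and 8.06 and 8.60 for Abcc9. Notch3, the Notch receptor of mural cells, had medians of 2.60 and 2.64, and the medians of Acta2 and Myh11 were 0. For each gene the ranges of the libraries overlapped.

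**Figure D1:**
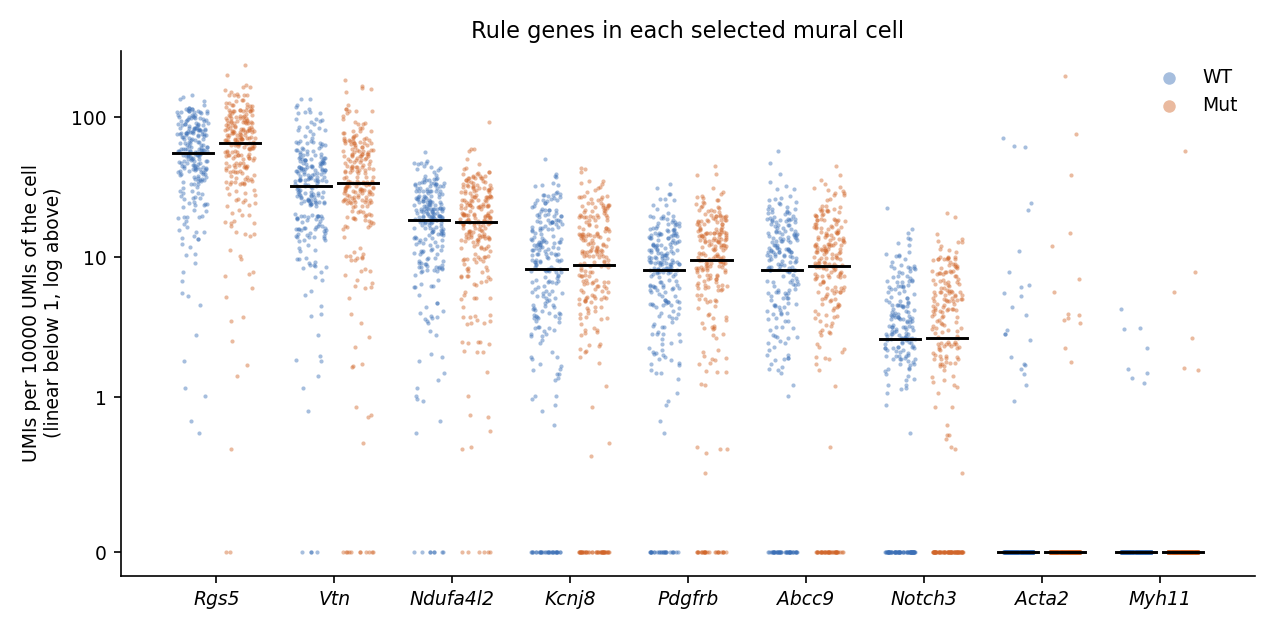
Level of each of the 9 rule genes in every selected mural cell, as UMIs per 10000 UMIs of the cell, on an axis that is linear below 1 and logarithmic above (WT 237 cells, Mut 235 cells, 1 library each). Points are cells and black lines are medians; the libraries overlap for each gene, and Acta2 and Myh11 are at 0 in most cells.

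Kcnj8 and Abcc9 encode the pore (Kir6.1) and the sulfonylurea receptor (SUR2) of the vascular ATP-sensitive potassium channel. They are neighbours on the minus strand of chromosome 6 in GRCm38, at chr6:142564837-142571614 and chr6:142587862-142702315, and an antisense gene, 5330439B14Rik, overlaps Abcc9. Rgs5 lies at chr1:169655501-169695813 on the plus strand. The 300 bases around the starts of these genes, 250 before and 50 after, are shown because their transcripts led the mural profile together. They are from RefSeq GRCm38.p6, read 5′ to 3′ on the gene's strand (chr1:169655251-169655550, chr6:142571565-142571864 and chr6:142702225-142702524). Capitals mark TGGGAA or, on the other strand, TTCCCA, the core of a motif bound by the Notch effector RBPJ.
Rgs5: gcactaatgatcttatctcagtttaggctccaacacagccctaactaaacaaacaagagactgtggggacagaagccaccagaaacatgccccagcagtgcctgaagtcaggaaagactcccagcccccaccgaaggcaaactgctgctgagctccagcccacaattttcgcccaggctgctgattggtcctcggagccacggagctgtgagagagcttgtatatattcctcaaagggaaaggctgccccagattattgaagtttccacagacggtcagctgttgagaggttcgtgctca
Kcnj8: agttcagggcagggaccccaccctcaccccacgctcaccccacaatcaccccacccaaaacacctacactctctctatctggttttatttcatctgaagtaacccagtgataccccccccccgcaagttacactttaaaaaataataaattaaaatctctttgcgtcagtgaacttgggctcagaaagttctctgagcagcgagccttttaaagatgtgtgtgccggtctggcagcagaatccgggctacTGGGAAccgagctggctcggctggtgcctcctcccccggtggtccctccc
Abcc9: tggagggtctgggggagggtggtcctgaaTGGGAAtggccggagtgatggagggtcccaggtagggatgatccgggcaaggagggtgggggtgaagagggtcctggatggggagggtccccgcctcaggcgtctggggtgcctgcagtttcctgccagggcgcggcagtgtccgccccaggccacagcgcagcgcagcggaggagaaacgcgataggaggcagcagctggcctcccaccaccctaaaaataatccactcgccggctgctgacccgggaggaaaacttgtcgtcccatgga

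Kcnj8 and Abcc9 each held 1 TGGGAA, and Rgs5 held none in this window. Promoters were found for 6 of the 9 rule genes, and 4 held the motif, namely Kcnj8, Abcc9, Vtn and Acta2. Of 25 other pericyte genes, 19 had a promoter and 10 held it, or 52.6%. Among all 27025 genes with a promoter the share was 28.3%. A match is a description of letters and not a binding site.

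Against all other filtered barcodes of the same library, the genes with the highest ratio were Higd1b, Rgs5, Kcnj8, Ndufa4l2 and Abcc9. Values are UMIs per 1000000 UMIs (CPM) and fold values are log2 after adding 5 CPM. Higd1b, a mitochondrial inner membrane protein that was not in the rule, had 2898 CPM in WT and 2776 in Mut mural cells and 41.2 and 43.0 in other barcodes, a log2 difference of 5.97 and 5.86. Rgs5 had 5219 CPM (95% counting interval 5089 to 5351) and 5690 CPM (5556 to 5826) against 84.1 and 99.5. Of the 25 other pericyte genes, 25 were more than 1.5-fold higher in both libraries, with a median log2 difference of 3.61 and 3.66. Over the 6440 genes with at least 50 UMIs, 14.6% were higher and 11.2% lower in both libraries. These genes were measured in the cells that the rule chose, so the contrast is a description.

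Besides the rule genes, the leading genes fell into a few functional groups. Receptors and signalling genes of vessel tone included Tbxa2r, the thromboxane receptor, at 388 and 379.9 CPM, Ednra, the endothelin receptor, at 310.4 and 340.4, S1pr3, a sphingosine-1-phosphate receptor, at 268 and 302, and Rgs4 at 477 and 480.5. Contractile and cytoskeletal genes included Cald1 (caldesmon) at 3000.05 and 2852 CPM, Myl9 (myosin regulatory light chain) at 1198 and 1173, Ppp1r14a, an inhibitor of myosin phosphatase, at 427 and 449, and Mylk (myosin light chain kinase) at 249 and 251. Surface and matrix genes included Cd248 (endosialin) at 549 and 551 CPM and Itga1, a collagen-binding integrin, at 1171 and 1111. The remaining leaders included Atp13a5 at 355 and 344, Art3 at 366 and 381, Ifitm1 at 444 and 500.2, Sod3 at 219.7 and 259, Cox4i2 at 592 and 608, Naalad2 at 143 and 143, Chp2 at 285 and 239 and the transcription factor Ebf1 at 509 and 531.

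**Figure D2:**
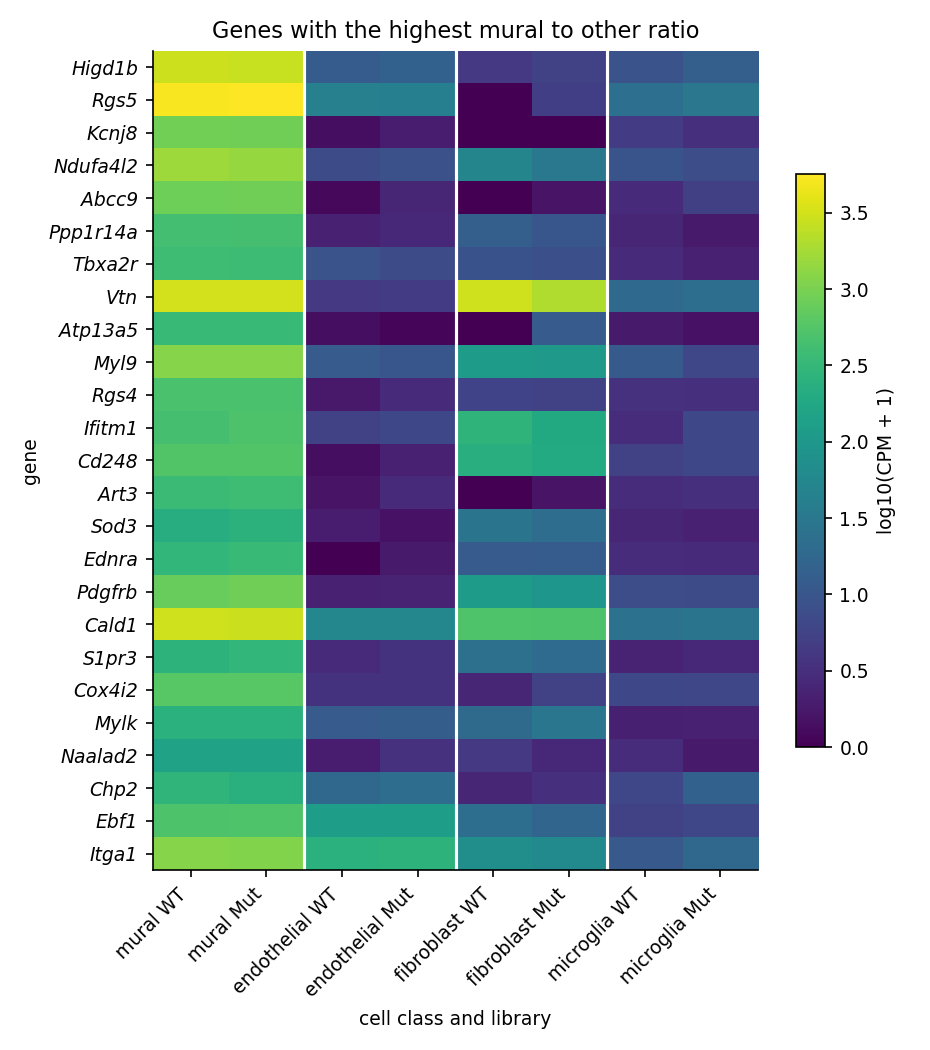
Level of the 25 genes with the highest mural to other ratio (rows) in mural, endothelial, fibroblast, and microglia and macrophage cells of each library (columns), as log10(CPM + 1) from summed UMIs. Vtn is also high in fibroblasts, at 3023 CPM in WT and 2041 in Mut against 3135 and 3178 in mural cells.

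Comparison with other vascular cells showed which of these genes were shared. Endothelial cells, barcodes in which 6 or more of 12 endothelial markers were detected (316 in WT and 391 in Mut), had 249 and 265 CPM of Itga1 and 123 and 127 of Ebf1, but 0.400 and 1.02 of Kcnj8. Fibroblasts, chosen likewise by their own markers (61 and 167 cells), had 3023 and 2041 CPM of Vtn, 532 and 508 of Cald1, 271 and 189 of Ifitm1, 235 and 199 of Cd248 and 116 and 92.0 of Pdgfrb. In fibroblasts Kcnj8 was at 0 in both libraries and Rgs5 at 0 and 3.98 CPM. In mural cells the fibroblast markers Lum and Mfap5 gave no UMI and Dcn gave 0 and 1. Col3a1 gave 115 and 110.4 CPM in mural cells within its limit, and 2003 and 1652 CPM in fibroblasts.

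Mural cells expressed the genes of the capillary basement membrane. Of 31 basement membrane and matrix genes, 25 reached 50 UMIs, and 22 of these were over 1.5-fold higher than in other barcodes in both libraries, against 14.6% of all 6440 genes. The median log2 difference was 2.81 in WT and 2.73 in Mut, against -0.04 and -0.02 over all genes. They included Col4a1 (type IV collagen) at 2449 CPM in WT and 2425 in Mut, Igfbp7 at 2361 and 2328, Sparc at 1851 and 1872, and Col4a2 at 1190.01 and 1362. Nid1 (nidogen) had 670.1 and 740.1 CPM and the laminin chains Lamb1 and Lama4 had 349 and 406, and 335 and 367. Col15a1 gave no UMI in either library. Endothelial cells and fibroblasts also held these genes, with 858 and 1444 CPM of Col4a1 in WT. The 31 genes summed to 13848 CPM in WT and 13900 in Mut mural cells. The sums were 11091 and 11867 in endothelial cells, and higher than in mural cells in fibroblasts, at 18213 and 17959. The list is therefore shared by these vascular classes and not particular to mural cells.

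Receptors of the PDGF and Notch systems and Notch targets were detected in mural cells, and the PDGF ligand Pdgfb was mainly in endothelial cells. Pdgfrb had 768 CPM in WT and 874 in Mut, while its ligand Pdgfb had 6.79 and 6.59 CPM in mural cells and 219 in WT endothelial cells. Gja4, a gap junction protein, had 385 and 414 CPM. Among Notch genes, Notch3 had 300.3 and 321 CPM, and its targets Heyl and Hes1 had 198 and 205, and 282 and 358. The ligands Jag1 and Dll4 had 50.9 and 42.9 CPM and 6.79 and 9.07 CPM. Vessel tone genes at 0 UMIs in both libraries were Ryr3, Adra1a, Adra1d, Avpr1a and Ptger4, and 13 of the 14 that were measured were over 1.5-fold higher than in other barcodes and 1 was lower. Of 11 measured Notch genes 5 were higher and 2 lower, with medians of 0.30 and 0.24. Of 19 PDGF, angiopoietin and TGF-beta genes 7 were higher and 6 lower, with medians of -0.23 and -0.07. Over all genes 14.6% were higher and 11.2% lower.

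Some mural cells held many transcripts of cell cycle genes. With at least 20 UMIs of 25 S, G2 and M phase genes per 10000, a limit set after the values were seen, 24.1% of WT (18.8 to 30.0%) and 26.4% of Mut mural cells (20.9 to 32.5%) were above it. Between 10 and 40 per 10000 lay 10.5% and 13.6%. The shares were 13.9% and 15.1% of endothelial cells, 13.1% and 10.2% of fibroblasts and 22.7% and 21.7% of all filtered barcodes. With each mural cell thinned to 1000 UMIs and 2 or more phase-gene UMIs required, they were 27.0% and 29.4%. Without the mixed-marker cells the unthinned shares were 24.04% and 27.5%.

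Cells with much smooth muscle actin or myosin were rare. No UMI of Acta2 or Myh11 was seen in 211 WT (89.0%) and 218 Mut (92.8%) mural cells. Cells with at least 50 UMIs of the pair per 10000 were called high, and 3 in WT and 2 in Mut passed. Cells with at most 5 were called low, 226 in WT and 228 in Mut, and 8 and 5 lay between. The classes are ranges of a value and not cell types. High cells were 1.27% of WT (0.262 to 3.65%) and 0.851% of Mut mural cells (0.103 to 3.04%), intervals that overlap.

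The 5 high cells showed a graded mix of smooth muscle and pericyte transcripts. In WT the first held 44 UMIs of Acta2, 3 of Myh11, 31 of Tagln and 54 of Rgs5, the second held 40, 0, 4 and 48, and the third 57, 1, 22 and 39. In Mut one cell held 39 of Acta2, 4 of Myh11, 16 of Tagln and 80 of Rgs5. The other Mut cell stood apart, with 116 of Acta2, 34 of Myh11, 110 of Tagln and 13 of Mustn1 but 1 of Rgs5 and 0 of Vtn, Kcnj8 and Higd1b. That last cell was the only high member with Rgs5 under 39 UMIs. Of all filtered barcodes 5 in each library were high, and the other 2 in WT and 3 in Mut had been left out by the fibroblast limit alone. One of the latter held 143 UMIs of Acta2, 35 of Myh11, 12 of Cnn1 and 29 of Rgs5.

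**Figure D3:**
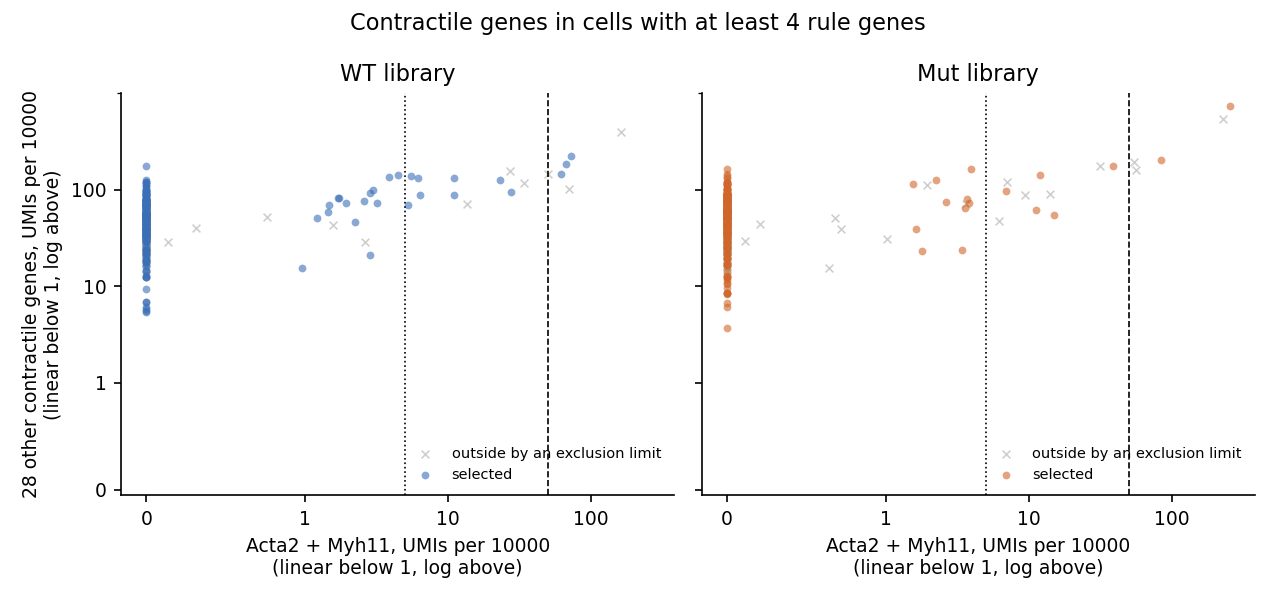
Acta2 and Myh11 (horizontal axis) against the sum of 28 other contractile genes (vertical axis) in each barcode with at least 4 rule genes, both as UMIs per 10000 on axes that are linear below 1 and logarithmic above. Circles are selected cells and crosses are cells left out by the endothelial or fibroblast limit; the dotted line marks 5 and the dashed line 50. Few cells lie right of the dashed line, and cells at 0 still hold other contractile UMIs.

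Acta2, the classic smooth muscle gene, lies at chr19:34241090-34255590 on the minus strand, and Myl9, which is active in low cells as well, is on chromosome 2. Their start regions are shown because the genes differ in how widely they were expressed here. They are from RefSeq GRCm38.p6 on the gene's strand, at chr19:34255324-34255623 and chr2:156775214-156775513. Capitals mark TGGGAA in Acta2 and an exact match to the CArG box, the motif of serum response factor, in Myl9. Near matches to the CArG box, such as ccctatatgg and ccttgttTGG in Acta2, are not marked. The marks therefore do not show that Acta2 lacks the motif.
Acta2: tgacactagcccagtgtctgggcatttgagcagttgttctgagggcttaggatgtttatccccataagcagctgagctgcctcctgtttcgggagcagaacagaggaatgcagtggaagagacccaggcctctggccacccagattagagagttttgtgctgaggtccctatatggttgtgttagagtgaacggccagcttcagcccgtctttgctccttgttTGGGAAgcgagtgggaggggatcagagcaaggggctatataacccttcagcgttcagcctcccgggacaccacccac
Myl9: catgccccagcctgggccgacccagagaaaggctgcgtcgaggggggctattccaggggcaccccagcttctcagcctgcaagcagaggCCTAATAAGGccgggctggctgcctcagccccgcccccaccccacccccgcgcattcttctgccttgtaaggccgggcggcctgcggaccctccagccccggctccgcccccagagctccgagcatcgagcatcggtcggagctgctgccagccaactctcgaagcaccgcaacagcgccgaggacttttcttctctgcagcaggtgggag

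A CArG box was found in 4 of 24 contractile genes with a promoter (Myl9, Ldb3, Vcl and Myl6), or 16.7%, and in none of the 19 other pericyte genes. Over all genes the share was 1.81%. The search allowed no mismatch.

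High cells held more contractile transcripts than low cells beyond the pair that defined them. Of the 28 other contractile genes, 15 reached 50 UMIs in mural cells, and 9 were over 1.5-fold higher in high than in low cells in both libraries and 0 lower. Over all 6358 genes compared, 6.39% were higher and 33.4% lower in both libraries. Tagln reached 50 UMIs only through the high cells, and with the minimum set on low cells alone 8 of 14 were higher, against 6.25% of 6319 genes. Tagln (transgelin) had 2643 CPM in high and 18.1 in low WT cells and 11419 and 21.1 in Mut. In Mut 1 cell gave 110 of the 126 Tagln and 116 of the 155 Acta2 UMIs of the high cells. Tpm2 (beta-tropomyosin) had 2736 against 191 CPM in WT and 7613 against 129 in Mut. Myl9 had 4591 against 1051 in WT and 7522 against 1097 in Mut, so low cells also had a substantial level. Tpm1 had 1206 against 210 and 3897 against 243, and Csrp1 325 against 42.5 and 1722 against 46.3. Acta2 itself had 6538 against 12.6 and 14048 against 10.1 CPM, which the classes fix.

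Other genes that led the high cells in both libraries were Crip1, at 1994 against 264 CPM in WT and 3263 against 331 in Mut, and Mgp (matrix Gla protein, an inhibitor of calcification in arteries), at 3802 against 680.0 and 6072 against 449.8. Pgf, a growth factor of the VEGF family, had 556 against 77.7 CPM and 544 against 73.3. Cavin3 had 1159 against 100 and 544 against 85.1, and Cavin1, a caveolar coat protein, 185 against 23.5 and 816 against 37.9. Rbpms2, Pdgfa, Rdh5, Tuba1c and Myo1c were also higher, with 6, 6, 4, 6 and 4 UMIs in high WT cells and 3, 4, 2, 4 and 3 in high Mut cells. Rbpms2, Pdgfa, Rdh5 and Tuba1c were seen in 1 of the 2 high Mut cells. Rdh5 reached 50 UMIs only through the high cells. With each cell thinned to 1000 UMIs the direction turned for Rbpms2 (-1.86) and Rdh5 (-2.17) on the log2 scale.

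The channel genes Kcnj8 and Abcc9 had few UMIs in the high cells. Kcnj8 had 185 CPM from 4 UMIs in high and 931 in low WT cells, and 90.6 from 1 UMI against 894 in Mut. Abcc9 had 139 CPM from 3 UMIs against 881, and 90.6 from 1 UMI against 884. Rgs5 was not lower in the sums, at 6538 against 5098 CPM in WT and 7341 against 5643 in Mut. In Mut 80 of the 81 Rgs5 UMIs of the high cells came from 1 cell, and the cell with the most Acta2 held 1. Ndufa4l2 and Notch3 lay within 1.5-fold of the low cells. The high cells held 0 UMIs of the 15 genes with the lowest ratios, among them the phase genes Mki67, Top2a, Ube2c and Hist1h1b and the astroglia genes Slc1a3, Slc1a2, Cspg5, Mt3 and Bcan. The floor of 3 counts was 139 CPM in WT and 272 in Mut. Hist1h1b, a replication histone at 827 and 843 CPM in low cells, lay there 5.95-fold above the floor in WT and 3.10-fold in Mut. Slc1a3 in low cells lay 4.31-fold and 2.43-fold above the same floors. The floor treats UMIs as independent, but the high cells were only 3 in WT and 2 in Mut. No minimum fold between high and low cells is therefore drawn from it. The low cells also lay above the floor in both libraries for Slc1a2, Cspg5, Mt3, Bcan and Tspan7. For Mki67, Top2a, Ube2c, Dclk1, Pltp, Syt11, Igfbp2 and Nnat the low cells in Mut were themselves under it, so no fold is given there. The 29 WT and 28 Mut mixed-marker cells were in the low class, and without them 1357 genes were lower in high cells in both libraries in place of 2124, and 323 higher in place of 406. Fewer genes reach the minimum without them (in Mut against WT 5145 in place of 6440), so these counts are not over the same genes. In high cells 1 UMI was 46.4 CPM in WT and 90.6 in Mut. For genes near the minimum, 0 UMIs thus counted as lower and 1 UMI as higher. The part of the mixed-marker cells in single genes was not tested.

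The Mut and WT mural profiles were close. Of 6440 genes, 235 (3.65%) were over 1.5-fold higher and 81 (1.26%) over 1.5-fold lower in Mut, and 59.3% were higher at all, with a median log2 difference of 0.06. The counting interval of the ratio left out 1 for 781 genes, 12.1%. Scaled by the median ratio of genes in place of the total, 152 were higher and 135 lower. Without the mixed-marker cells 217 and 80 of 5145 genes passed 1.5-fold. The ratios compare shares of the UMIs of the chosen cells. The limits of the rule are in UMIs and detected genes, so RNA per cell and the mix of cells bear on which cells were chosen, and cannot be told apart from a change within a cell.

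**Figure D4:**
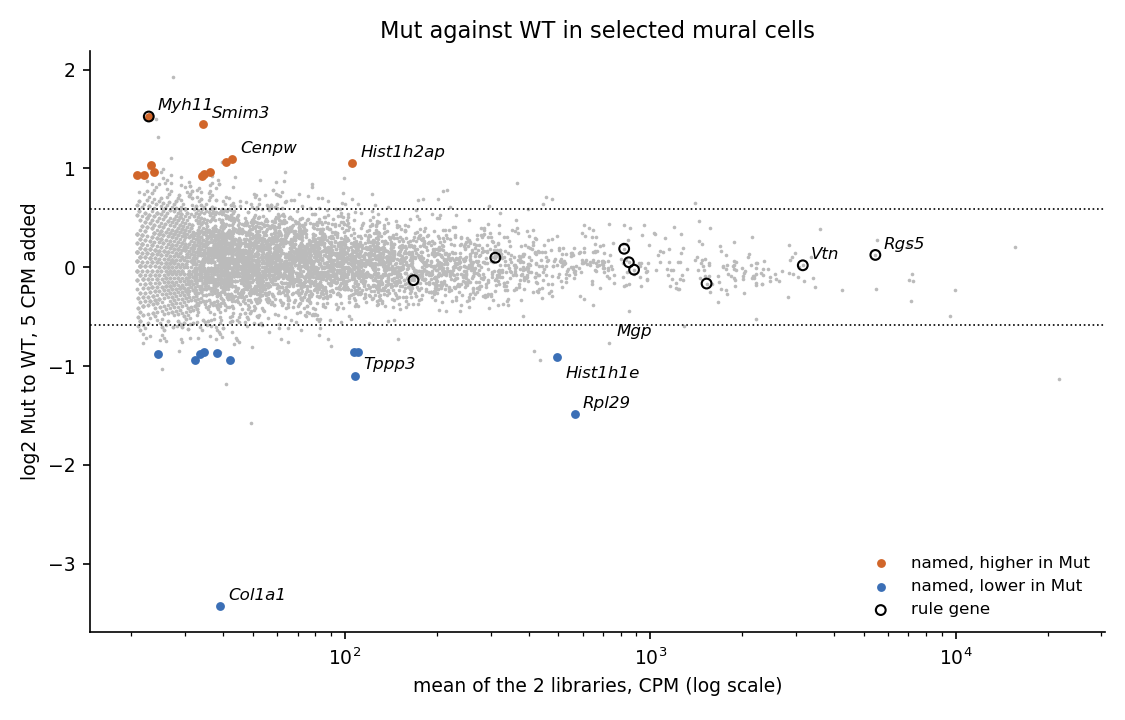
Log2 ratio of Mut to WT in mural cells, with 5 CPM added, against the mean level of the libraries in CPM on a log axis, for 6440 genes (grey). Coloured points are the 12 genes named highest and 12 named lowest, open circles are rule genes, and dotted lines mark 1.5-fold. Grey points farther out than the coloured ones are genes that the naming rule leaves out, most of them higher in barcodes with few UMIs than in mural cells; Col1a1 is the lowest point, and the rule genes other than Myh11 lie between the lines.

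The genes that define the cells differed little. Rgs5 was 1.09 times as high in Mut (1.05 to 1.13), Pdgfrb 1.14 times (1.04 to 1.25) and Ndufa4l2 0.892 times (0.835 to 0.952). The intervals of Vtn, Kcnj8, Abcc9, Notch3 and Acta2 held 1. For Acta2 this rests largely on single cells. WT had 207 UMIs in 24 cells, 57 of them in 1 cell. Mut had 194 in 14 cells, 116 of them in the single high cell described above. The Acta2 ratio without these top cells was not computed. Myh11 was 3.89 times as high (1.98 to 8.34), with 11 UMIs in 8 WT cells and 44 in 6 Mut cells, but 34 of the 44 came from the single high cell described above. Without the cell with the most Myh11 in each library the log2 difference was 0.17 in place of 1.53. Of the other pericyte genes 17 were higher and 8 lower, 0 and 1 of them past 1.5-fold. Without the mixed-marker cells 19 of the 25 were higher, and 0 passed 1.5-fold either way. Over all genes 59.3% were higher, and 3.65% were higher and 1.26% lower past 1.5-fold. Slc38a11, an amino acid transporter of pericytes, had 0.601 times the WT level (0.393 to 0.911). Without the mixed-marker cells it was 0.650 times in plain ratio, which is within 1.5-fold once 5 CPM are added. Tbx2, a transcription factor, was 1.36 times as high (1.10 to 1.69).

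Col1a1, which encodes the main chain of type I collagen and lies at chr11:94936224-94953042 on the plus strand, showed the largest difference of any gene named. WT mural cells held 89 UMIs in 48 cells, at most 4 in a cell, and Mut held 3 UMIs in 3 cells. The levels were 75.5 CPM (60.6 to 92.9) and 2.47 CPM, which is 0.0328 times (0.00663 to 0.0989). Without mixed-marker cells they were 90.5 and 3.35 CPM. In the male cells 32 UMIs in 16 of 52 WT cells stood against 0 in 38 Mut cells, where 3 counts would be 14.8 CPM. In the female cells 10 UMIs in 7 of 93 WT cells stood against 2 in 101 Mut cells, a ratio of 0.173 (0.0185 to 0.813). WT male cells held 107 CPM and WT female cells 19.5 CPM. Col1a1 was not a gene of the rule, but the rule limited Col3a1, which had 136 and 134 UMIs. Col1a2, the partner chain, had 183 and 227 UMIs and a ratio of 1.21 (0.988 to 1.47).

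Col1a1 was also lower in Mut among cells that the rule removed, which come from the same libraries. Among cells left out by the fibroblast limit alone, WT had 479.8 CPM from 203 UMIs and Mut 107 CPM from 59, a ratio of 0.222 (0.163 to 0.298). The female ones gave 0.122 (0.0709 to 0.199) and the male ones 0.477 (0.306 to 0.728). Of the 203 WT UMIs 115 came from 5 of 21 female cells. In the same removed cells Col1a2 was 0.694 (0.582 to 0.827) and Col3a1 0.663 (0.572 to 0.767). Both were also lower in Mut, but by less than Col1a1. Col3a1 is itself a gene of the limit that removed these cells. The male ones gave 1.24 (0.919 to 1.68) for Col1a2 and 1.44 (1.10 to 1.89) for Col3a1. Fibroblasts had 1313 and 1216 CPM of Col1a1, a ratio of 0.926 (0.855 to 1.005). It was 1.13 (1.02 to 1.25) in female and 0.766 (0.638 to 0.926) in male fibroblasts. Over all other filtered barcodes the log2 difference was 0.71, higher in Mut. Ogn, another fibroblast-associated gene, had 39 UMIs in WT and 19 in Mut mural cells, a log2 difference of -0.88, and 0.61 in the other barcodes. In fibroblasts Ogn had 452 CPM in WT and 398 in Mut. Among mural cells Ogn had 10 UMIs in female WT and 14 in female Mut cells, and 18 and 2 in male cells. The direction in female mural cells was thus opposite.

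Mgp lies at chr6:136872435-136875823 on the minus strand and differed in the same direction. It had 1085 UMIs in 99 WT cells and 655 in 90 Mut cells, 920.3 and 539.8 CPM, which is 0.587 times (0.532 to 0.647). The median cell had 0 in both libraries, the highest cells had 146 and 129 UMIs per 10000, and the top 5 cells held 28% and 35.3% of all Mgp UMIs. The ratio was 0.550 (0.476 to 0.635) for female and 0.702 (0.583 to 0.843) for male mural cells. Among cells removed by the fibroblast limit alone it was 0.697 (0.614 to 0.792), but 1.52 (1.27 to 1.81) in the male ones. In other barcodes Mgp was higher in Mut, by 1.16 on the log2 scale. Mgp was also a leading gene of the high cells, but the high cells held 82 and 67 of its UMIs.

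**Figure D5:**
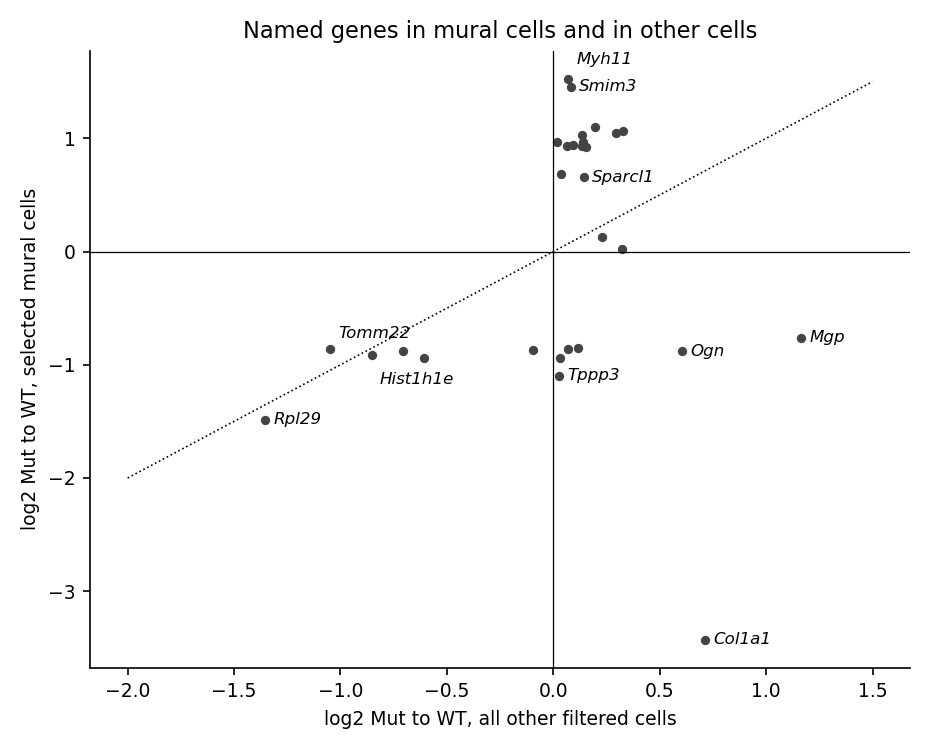
Log2 ratio of Mut to WT in mural cells (vertical axis) against the ratio in all other filtered barcodes (horizontal axis), for the 24 genes named by rule and a few listed genes. Points on the dotted line have the same ratio in both. Rpl29, Hist1h1e and Tomm22 lie near the line. Col1a1, Ogn and Mgp lie in the lower right, lower in mural cells and higher in the sum of all other filtered barcodes.

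Several of the lowest genes were also lower in Mut in the sum of all other filtered barcodes. Rpl29, a large ribosomal subunit protein, had 984 and 358 UMIs, a log2 difference of -1.48, and -1.35 in other barcodes. It had 255 UMIs in male WT and 7 in male Mut mural cells, and 433 and 268 in female cells. In fibroblasts the Rpl29 ratio was 0.0226 (0.0135 to 0.0361) in male and 0.835 (0.721 to 0.968) in female cells. Hist1h1e, a linker histone, differed by -0.91 in mural cells and -0.85 in other barcodes, Tomm22, a mitochondrial import receptor, by -0.86 and -1.05, Hist1h3e by -0.87 and -0.71, and Rnaset2b by -0.94 and -0.61. Rnaset2b had 45 and 12 UMIs in female cells but 6 and 14 in male cells, the opposite direction. Hist1h3e turned to 0.18 with each cell thinned to 1000 UMIs and to 0.38 in cells with no endothelial or fibroblast rule gene. Near-identical copies of histone genes, of Rpl29 and of Rnaset2b can share reads, so their levels are uncertain.

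Other genes of this group had log2 differences of only -0.10 to 0.12 in the other barcodes. Tppp3, a tubulin polymerization protein, had 175 UMIs in 95 WT cells and 81 in 56 Mut cells, 148 and 66.8 CPM, which is 0.450 times (0.341 to 0.589), and other barcodes differed by 0.03 on the log2 scale. Female cells gave 0.364 (0.241 to 0.541) and male cells 0.715 (0.376 to 1.31). Ifi27 had 169 and 93 UMIs, -0.86 on the log2 scale, Uba3 52 and 25, Stk19 60 and 31, and Adgrf5 54 and 28. Uba3 turned to 0.58 with each cell thinned to 1000 UMIs. In fibroblasts the Tppp3 ratio was 0.678 (0.471 to 0.988). Among cells removed by the fibroblast limit alone it was 0.405 (0.261 to 0.619). Fibroblasts also had less Ifi27 in Mut, at 268 CPM in WT and 196 in Mut, and 36.1 and 32.4 of Uba3. Stk19, at 26.7 and 35.2 CPM, was higher in Mut fibroblasts. Adgrf5 had 4.70 and 21.6 CPM there, but 4.70 CPM is the level of 3 counts in WT fibroblasts, so no direction is drawn. Endothelial cells had 342 and 373 CPM of Adgrf5. The difference from other barcodes was not tested.

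Higher genes were mostly of low level. Smim3, a small membrane protein, had 19 UMIs in 18 WT cells and 64 in 56 Mut cells, 16.1 and 52.7 CPM, which is 3.27 times (1.94 to 5.78). By sex it was 2.79 (1.29 to 6.71) for female and 2.21 (0.524 to 10.6) for male cells, and other barcodes differed by 0.08 on the log2 scale. Cenpw, a centromere protein, had 30 and 73 UMIs, and Hist1h2ap, a histone gene with near-identical copies, had 79 and 175. Lrig1, a negative regulator of growth factor receptors, had 29 and 69, and Lancl1 27 and 60. Tspan9, Nfya, Gstt2, Pradc1, Slc17a5 and Max had 15 to 26 UMIs in WT and 35 to 57 in Mut. Gstt2 had 12 and 39 UMIs in female cells but 8 and 4 in male cells, the opposite direction.

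By list, most genes of each vascular group stayed within 1.5-fold, as did most genes of any kind. Past it, 3.65% of all 6440 genes were higher and 1.26% lower. Over all genes 59.3% were higher in Mut, and without the mixed-marker cells 3040 of 5145. Of 25 measured matrix genes 17 were higher and 8 lower in Mut, with 0 past 1.5-fold higher and 2, Col1a1 and Mgp, past it lower, and a median log2 difference of 0.12 beside 0.06 over all genes. Leaving out the mixed-marker cells, 19 of the 25 were higher, with 1 past 1.5-fold higher and 2 past it lower. Timp3, an inhibitor of matrix proteases, was 1.45 times as high (1.14 to 1.84), and 1.24 times without the mixed-marker cells. Of 15 measured contractile genes 10 were higher and 5 lower with a median of 0.07, Casq2 (1.75, 1.14 to 2.72) and Tagln (1.59, 1.24 to 2.06) past 1.5-fold. In the cells left without mixed markers 12 of the 15 were higher. Of the 164 UMIs of Tagln in Mut, 110 came from the single high cell. Of 14 measured vessel tone genes 11 were higher, with 0 past 1.5-fold, and 10 of 13 without those cells. Ednrb, at 1.51 in plain ratio (1.23 to 1.86), is also an astroglia gene, with 11 and 31 UMIs left without the mixed-marker cells. Of 11 Notch genes 6 were higher with a median of 0.05, and 0 passed 1.5-fold. Without the mixed-marker cells 7 of 9 were higher, 1 of them past 1.5-fold. Hes1 was 1.27 times as high with all cells (1.10 to 1.47).

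Of 19 PDGF, angiopoietin and TGF-beta genes, 16 had a higher level in Mut, against 59.3% of all genes, and the median was 0.10 against 0.06. The count was 11 of 14 without the mixed-marker cells. Id1, a target of BMP signals, had 181 UMIs in WT and 304 in Mut and was 1.63 times as high (1.35 to 1.97), and Id3 was 1.30 times as high (1.17 to 1.44). Without the mixed-marker cells they were 1.48 and 1.11. Pdgfra, which marks oligodendrocyte precursors and fibroblasts, was 0.597 times WT with all cells and 1.70 times without the mixed-marker cells, on 10 and 17 UMIs. Of 25 phase genes 18 were higher with a median of 0.19, and 22 without the mixed-marker cells, against 59.3% of all genes. Mcm6, a replication helicase subunit, was 1.82 times as high (1.34 to 2.504), and the summed ratio was 1.12 (1.06 to 1.17). The direction of the sum turned in female cells, to -0.087 on the log2 scale, and with at least 3 of the 9 rule genes, to -0.44.

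Markers of other cell classes moved with the genotype and their part in the results was not tested. Of 12 astroglia markers 12 were higher in Mut mural cells, 7 of them past 1.5-fold, against 3.65% of all genes. Only 5 were measured without the mixed-marker cells, of which 4 were higher and 1 was past 1.5-fold. Their sum was 9678 CPM in WT and 12360 in Mut, and 2527 and 3076 without the mixed-marker cells. In single cells the sum ran from 0 to 559 UMIs per 10000 in WT and from 3.26 to 723 in Mut. Sparcl1, which is expressed by astroglia and by vascular cells, had 1285 and 2086 UMIs and was 1.58 times as high (1.47 to 1.69), and 1.53 times without mixed-marker cells. Microglia and macrophage markers summed to 24.6 CPM in WT and 176 in Mut, where 1 cell reached 319 UMIs per 10000, with Tmem119 at 0 in both. Without the mixed-marker cells the sums were 31.3 and 60.3 CPM. Neuron markers summed to 319.8 and 162 CPM, with Neurod6 at 0, and to 246 and 176 without those cells. Oligodendrocyte lineage markers summed to 792 and 929 CPM, with cells from 0 to 192 per 10000 in both libraries, and to 138 and 208 CPM without the mixed-marker cells.

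Endothelial markers summed to 528 CPM in WT and 532 in Mut mural cells and fibroblast markers to 499 and 447, against 13480 and 12744 CPM in endothelial cells and 12508 and 10803 in fibroblasts. The endothelial sums were 628 and 656 CPM and the fibroblast sums 538 and 533 without the mixed-marker cells. Erythroid markers summed to 110.3 and 109 CPM, and to 122 and 118 without those cells. The 20 dissociation-linked immediate early genes summed to 4489 and 5002 CPM, with 13 of 18 measured genes higher in Mut. Without the mixed-marker cells 7 of 17 were higher and the sums were 4187 and 4009, the opposite direction. The sum also turned in male cells, to -0.24 on the log2 scale. Of the other katanin genes Katnbl1 alone reached 50 UMIs, with 43 in WT and 46 in Mut.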

How the data were processed

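Single-cell RNA was measured in 1 WT and 1 Mut library. The deposited matrices hold raw UMI counts for 32285 genes and all barcodes, 93664707 UMIs in WT and 97891513 in Mut, made with Cell Ranger 4 per the file headers, and with Cell Ranger, STAR and mouse build GRCm38 per the submitters' processing notes. For the aligner settings and annotation release, these sources say nothing further (not given in the sources used here). Gene IDs were matched to GENCODE vM21 for positions (32158 of 32285 found).

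The mural cells, gene lists and limits were chosen with earlier results of these data known. UMIs were summed per library and group and scaled to CPM. Log2 ratios had 5 CPM added, and genes needed 50 UMIs in mural cells over both libraries. A gene counted as higher or lower past 1.5-fold. With 1 library per genotype no test was made. Intervals were exact at 95% (Poisson for sums, Clopper-Pearson for shares, conditional binomial for ratios). Other comparison cells held at least 6 of 12 markers of their class. Doublets were scored with Scrublet in scanpy 1.11.5 at 0.8% per 1000 barcodes, which marked 31 WT and 23 Mut mural cells. They were kept, and removed as an alternative. Scripts used Python 3.11.15, numpy 2.4.6, scipy 1.17.1 and pandas 2.3.3, and were tested on simulated data.

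The text names the rule genes, the 25 genes with the highest mural to other ratio, the 15 highest and 15 lowest in high against low cells, and the 12 highest and 12 lowest in Mut against WT whose interval left out 1. The latter omit genes of the mitochondrial genome and of haemoglobin, and genes higher in barcodes of 10 to 100 UMIs than in mural cells. They also omit the sex-linked genes Xist, Tsix, Ddx3y, Eif2s3y, Kdm5d and Uty, but no other genes of the sex chromosomes. From each list, members with the highest levels or largest differences were named. Alternatives changed the barcode limits, rule limits, sex, added CPM, scaling, gene minimum, depth and class limits. Those leaving out mixed-marker cells, 1 rule limit or the top cell of a gene, or setting the gene minimum on low cells, were chosen after seeing the data.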

Additional observations from a re-analysis of the deposited data

Results flagged for a closer look

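Col1a1 was lower in Mut than in WT mural cells, by -3.43 on the log2 scale, and higher in Mut over all other filtered barcodes, by 0.71. Ogn had the same pattern, with -0.88 in mural cells and 0.61 in the others. Mgp also had it, with -0.76 in mural cells and 1.16 in the others. These 3 genes drew attention because the direction in mural cells was opposite to that in the summed rest of the library. That sum held 61 WT and 167 Mut fibroblasts, and the part of their number was not tested. In fibroblasts alone Col1a1 had 1313 CPM in WT and 1216 in Mut, Ogn 452 and 398, and Mgp 524 and 1917. Each value compares 1 library with 1 library, and the difference between mural and other cells was not tested. In female cells alone Ogn was 0.23, so its opposite direction rests on the male cells and those of no assigned sex.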

How the results depend on the processing

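No paired analysis was possible because each genotype has 1 library. The main values were a Mut to WT ratio of mural shares of 1.08, 406 genes higher and 2124 lower in high cells, 235 higher and 81 lower in Mut, and 14 genes of the 10 compared lists past 1.5-fold. The high cell counts are 6.39% and 33.4% of 6358 genes, and the Mut counts 3.65% and 1.26% of 6440. The number of genes measured changed with the cells, depth or gene minimum used. The counts of those alternatives, and all list counts, are therefore not shares and cannot be set beside these percentages. Of 106 recomputed main results 73 stayed within the limits set and 33 moved, and the cause was not tested. With at least 3 of 9 genes, 3633 were lower in high cells, 449 higher and 183 lower in Mut, and 24 of the lists. With endothelial and fibroblast genes at 0, 226 were higher and 774 lower in high cells. Among female cells the share ratio was 0.791. Among male cells 147 were higher and 390 lower in high cells, and 111 higher in Mut. Adding 1 CPM gave 133 lower in Mut, and adding 20 CPM gave 63 higher, 27 lower and 6 of the lists. Median-ratio scaling gave 192 higher in high cells, and 152 higher and 135 lower in Mut. A minimum of 20 UMIs per gene, which tests more genes, gave 4339 lower in high cells and 553 higher and 228 lower in Mut. A minimum of 100 UMIs, which tests fewer, gave 241 and 941 in high cells, 83 and 30 in Mut, and 6 of the lists. Thinning to 1000 UMIs gave 133 and 636 in high cells and 83 higher in Mut. Without mixed-marker cells 1357 were lower in high cells. Without the endothelial limit 613 were higher and 4377 lower in high cells, 49 lower in Mut and 9 of the lists.

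Directions turned in 17 recomputed values. For at least 3 of 9 genes these were the sums of the rule genes (-0.37), vessel tone (-0.16) and phase genes (-0.44), as log2 Mut to WT. With endothelial and fibroblast genes at 0 they were Hist1h3e (0.38) and the Notch sum (-0.12), and in female cells Ogn (0.23) and phase genes (-0.087). In male cells they were Gstt2 (-0.36), Rnaset2b (1.56), Notch (-0.25) and immediate early genes (-0.24). After thinning they were Rbpms2 (-1.86) and Rdh5 (-2.17) in high against low cells, and Uba3 (0.58), Hist1h3e (0.18) and immediate early genes (-0.037) in Mut. Without mixed-marker cells the immediate early sum was -0.063. Col1a1 ranged from -4.49 to -1.55, Smim3 from 0.91 to 1.65 and Myh11 from 0.06 to 3.49. Limits of 100 and 2 per 10000, and female cells alone, left no high cell in a library and gave no value. High cells held 3 and 2 cells, so their values rest on few UMIs.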
